A study of Mus with 2 samples.

Results

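The oxidative phosphorylation (OXPHOS) genes are those for the subunits of the respiratory complexes I to V. Members were taken by symbol, that is the *Ndufa*, *Ndufb*, *Ndufc*, *Ndufs* and *Ndufv* genes of complex I, *Sdha* to *Sdhd*, the *Uqcr* genes and *Cyc1*, the *Cox5* to *Cox8* genes, the *Atp5* genes and the genes of the mitochondrial genome. Of 106 matching symbols, 9 pseudogenes and assembly factors were removed, which left 97 of the 32285 listed genes. Of these, 84 were nuclear-encoded, with 36 in complex I, 4 in complex II, 9 in complex III, 18 in complex IV and 17 in complex V. The other 13 were mitochondrially encoded, with 7 in complex I, 1 in complex III, 3 in complex IV and 2 in complex V. *Ndufa4* and *Ndufa4l2* were counted with complex IV, where their proteins are found. The rule did not take *Cox4i1* and *Cox4i2*, which were measured beside the members.

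Complexes I to IV pass electrons from NADH and succinate to oxygen and, other than complex II, pump protons out of the mitochondrial matrix. Complex V, the ATP synthase, lets the protons back in to make ATP, and UCP1 of brown adipocytes lets them back in without ATP, so that the energy is released as heat. Brown adipocytes are packed with mitochondria, and their complexes combine subunits from both genomes, which makes the transcripts of each genome a separate readout of the same machine. Some complex IV subunits have a form found mainly in heart, skeletal muscle and brown fat (*Cox7a1*, *Cox8b*) beside a widely used form (*Cox7a2*, *Cox8a*).

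Single-nucleus RNA-seq (snRNA-seq) counts were analysed for frozen interscapular brown adipose tissue (iBAT) of C57BL/6 mice, at an age of 8 weeks and on normal chow. The *Wtap* flox/flox library came from mice with both *Wtap* alleles floxed around an exon and without Cre, and the other, called the BKO-labelled library here, came from mice with the same alleles and *Ucp1*-iCre, a recombinase driven by the promoter of a brown adipocyte gene. *Wtap* codes for a subunit of the m6A methyltransferase complex. Each library pooled 4 mice, which cannot be told apart. Each genotype thus had 1 library, no test between genotypes was possible, and all intervals below are 95% intervals that cover counting error only.

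The flox/flox library held 9494 nuclei and 10770604 unique molecular identifiers (UMIs), and the BKO-labelled library held 8772 nuclei and 13945673 UMIs. The libraries shared 20 cell barcodes. The targeted gene did not separate them. In adipocyte-like nuclei *Wtap* was at 49.6 counts per 1000000 UMIs (CPM) in the flox/flox library and at 47.9 CPM in the BKO-labelled library, a log2 ratio of -0.05 (-0.26 to 0.16), so every direction below rests on the labels. Whether the exon was lost was not tested, since UMIs were counted over the whole gene. Nuclei fell into 12 clusters, formed with all OXPHOS genes left out. By their markers, 6662 and 4788 nuclei were adipocyte-like, 1119 and 776 endothelial-like, 296 and 1127 macrophage-like, 115 and 743 T cell-like, 282 and 492 fibroblast-like, and 472 and 233 pericyte-like, in the order *Wtap* flox/flox and *Wtap*-BKO. The 12 and 60 B cell-like nuclei were too few to compare. A cluster of 536 and 553 nuclei, led by mitochondrial and hemoglobin genes, was left unnamed. It passed 7 of the 12 adipocyte markers, as many as the largest adipocyte-like cluster. It was set apart because mitochondrial genes were among its 10 leading genes. The mitochondrial members thus had a part in which nuclei count as adipocyte-like. All adipocyte-like values below leave this cluster out. Nuclei with over 5% mitochondrial UMIs made up 33.0% of the flox/flox library and 74.8% of the BKO-labelled library.

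Mitochondrially encoded transcripts stood higher in adipocyte-like nuclei of the BKO-labelled library, while the nuclear-encoded transcripts, as a sum, were close to level. Summed over the 84 nuclear-encoded genes, the level was 11902 CPM (11825 to 11980) in the flox/flox library and 10858 CPM (10787 to 10929) in the BKO-labelled library, a log2 ratio of -0.13 (-0.15 to -0.12). Summed over the 13 mitochondrial genes, it was 45178 CPM (45026 to 45330) and 117466 CPM (117232 to 117700), a log2 ratio of 1.38 (1.37 to 1.38). The nuclear-encoded ratio moved with the mitochondrial share of the nuclei, and was -0.50 with nuclei of over 5% mitochondrial UMIs removed. The mitochondrially encoded ratio was then 0.38, but this filter limits the very quantity that is compared, so that a ratio nearer to 0 was bound to follow. Nuclei chosen by a quantity that itself differs between the libraries are not like for like, so the nuclear-encoded ratio among them describes those nuclei and not the library.

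The complexes did not share 1 ratio. Complex V had the lowest, with its 17 nuclear-encoded genes summing to 3114 CPM in the flox/flox library and 2487 CPM in the BKO-labelled library, a log2 ratio of -0.32 (-0.35 to -0.30). Complex II followed at 480 and 411 CPM, a log2 ratio of -0.22 (-0.29 to -0.15). Complex I was at 3882 and 3441 CPM, -0.17 (-0.20 to -0.15). Complex III was at 1815 and 1693 CPM, -0.10 (-0.13 to -0.07), a direction that turned to 0.013 with mitochondrial UMIs left out of the denominator. Complex IV alone was higher in the BKO-labelled library, at 2612 and 2826 CPM, 0.11 (0.09 to 0.14), and its direction turned to -0.40 without nuclei of over 5% mitochondrial UMIs. The mitochondrially encoded genes of complexes I, III, IV and V had log2 ratios of 1.498, 1.26, 1.34 and 1.44, so within each of these complexes the transcripts from the mitochondrial genome were higher relative to those from the nucleus.

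**Figure D1:**
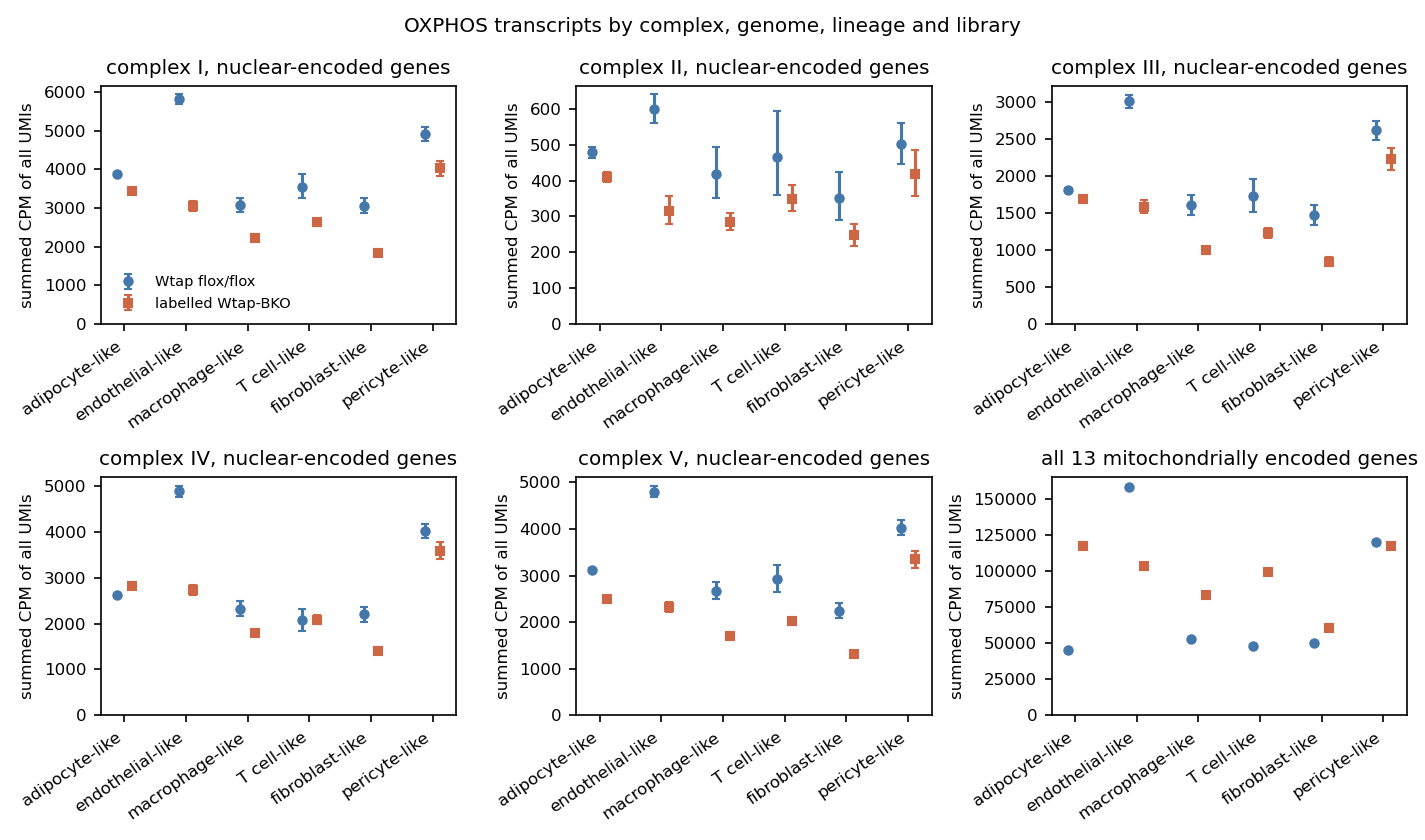
Summed CPM of all UMIs for the nuclear-encoded genes of complexes I to V and for the 13 mitochondrially encoded genes, by lineage; circles are the flox/flox library, squares the BKO-labelled library, bars are exact 95% Poisson intervals (counting error only). In adipocyte-like nuclei complex V is lower in the BKO-labelled library (3114 and 2487 CPM) while the mitochondrial genes are higher (45178 and 117466 CPM).

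Among the mitochondrial genes, all 13 were higher in adipocyte-like nuclei of the BKO-labelled library by at least 1.5-fold, a call that 25% of the 14031 genes tested met. *mt-Nd1*, a core proton-pumping subunit of complex I (chromosome MT, 2751-3707), had the highest ratio, with 1738 CPM and 5826 CPM and a log2 ratio of 1.75 (1.72 to 1.77). *mt-Nd2* had 1.70 and *mt-Nd4l* 1.65. The catalytic subunit of complex IV, *mt-Co1*, was at 12432 and 34689 CPM, 1.48 (1.47 to 1.49), *mt-Nd4* at 1.45, *mt-Atp6* of the proton channel of complex V at 1.45 and *mt-Co2* at 1.42. The lower ones were *mt-Nd6* at 1.31, *mt-Cytb* of complex III at 1.26, *mt-Atp8* at 1.15, *mt-Nd3* at 1.14, *mt-Nd5* at 1.09 and *mt-Co3* (chromosome MT, 8607-9390) at 1.08. *mt-Co3* was at 9803 and 20743 CPM. The mitochondrial genes thus did not share 1 ratio, and those of *mt-Nd1* and *mt-Co3* had intervals that did not overlap.

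Of the 84 nuclear-encoded members, 80 had at least 20 UMIs in adipocyte-like nuclei of both libraries together. *Cox8c*, a testis form, had 0 UMIs in both libraries, which allows up to 3 UMIs in each, and *Cox6a2*, *Cox7b2* and *Ndufa4l2* had 7, 7 and 8 UMIs in both together. Of the 80, 50 were below 0 and 30 above, with a median log2 ratio of -0.15 against 0.07 over all genes tested. At least 1.5-fold lower were 10 of them, against 12.4% of all genes tested, and 4 were at least 1.5-fold higher, against 25%. Without nuclei of over 5% mitochondrial UMIs these counts were 31 and 0, and with mitochondrial UMIs left out of the denominator 4 were lower. The members that passed this minimum on counts are described, with no test over them. Their genes were shorter, with a median span of 7154 bases against 25213 for all genes with a known span. Among genes under 10000 bases the median log2 ratio was -0.03 for members and 0.29 for all genes. Among longer genes it was -0.29 and 0.001.

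In complex I, the 7 nuclear-encoded core subunits, which take electrons from NADH in the peripheral arm, summed to 930 and 690 CPM, a log2 ratio of -0.43 (-0.48 to -0.38), and the 29 accessory subunits to 2952 and 2751 CPM, -0.10 (-0.13 to -0.08). *Ndufv1*, the flavin-bearing subunit that binds NADH (chromosome 19, 4007499-4012755, mm10), was at 162 CPM (153 to 171) in the flox/flox library and 87.5 CPM (81.2 to 94.1) in the BKO-labelled library, a log2 ratio of -0.89 (-1.02 to -0.75). *Ndufs1*, which carries the electrons on through iron-sulfur clusters, was at 211 and 145 CPM, -0.54 (-0.65 to -0.43). Of the 7 core subunits, grouped as such after their values were seen, 6 had intervals below 0, against 24.6% of all genes tested, and *Ndufs7*, named after its value was seen, was at 0.14 (-0.03 to 0.31).

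Among the accessory subunits of complex I, 16 lay below 0 and 13 above, with a median of -0.003. *Ndufb2* of the membrane arm was at 62.3 and 35.2 CPM, -0.82 (-1.04 to -0.61), *Ndufa9* at 62.7 and 38.2 CPM, -0.71 (-0.92 to -0.51), and *Ndufa13* at 91.9 and 57.7 CPM, -0.67 (-0.84 to -0.50). *Ndufs4*, an accessory subunit of the peripheral arm, was at 218 and 167 CPM, -0.38 (-0.48 to -0.27).

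In complex II, the succinate dehydrogenase that also serves the TCA cycle, the iron-sulfur subunit *Sdhb* was at 114 and 73.9 CPM, -0.63 (-0.78 to -0.48), and the flavin subunit *Sdha* at 227.5 and 193 CPM, -0.24 (-0.34 to -0.14). The membrane anchors *Sdhc* and *Sdhd* were at -0.06 (-0.22 to 0.10) and 0.24 (0.05 to 0.43). In complex III, the cytochrome subunit *Cyc1* was at 308 and 225 CPM, -0.45 (-0.54 to -0.36). The Rieske iron-sulfur subunit *Uqcrfs1* (chromosome 13, 30540312-30545316) was on the other side, at 64.3 and 109 CPM, 0.76 (0.60 to 0.92), as was *Uqcrb* at 82.3 and 109 CPM, 0.41 (0.26 to 0.56). Without nuclei of over 5% mitochondrial UMIs *Uqcrb* turned to -0.31 and *Sdhd* to -0.25, and *Uqcrfs1* was at 0.20. The small subunits *Uqcrq* and *Uqcr11* were at 0.00 (-0.08 to 0.09) and -0.15 (-0.24 to -0.06) over all nuclei, and at -0.48 and -0.68 without those over 5%.

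In complex IV, *Cox6a1* and *Cox8a* lay highest and *Cox8b*, *Cox7a1* and *Cox6b2* lowest over all nuclei. *Cox6a1*, the widely used form of a regulatory subunit (chromosome 5, 115345652-115348958), was at 202 CPM (192 to 213) in the flox/flox library and 395 CPM (382 to 409) in the BKO-labelled library, a log2 ratio of 0.97 (0.88 to 1.06). *Cox8a*, the widely used form of the smallest subunit, was at 140 and 211 CPM, 0.59 (0.48 to 0.70). *Cox5a* at 0.20 (0.12 to 0.29), *Cox6b1* at 0.17 (0.06 to 0.29), *Ndufa4* at 0.18 (0.09 to 0.26) and *Cox6c* at 0.13 (0.05 to 0.21) were slightly above 0. Without nuclei of over 5% mitochondrial UMIs *Cox6a1* was at 0.15, while *Cox8a* turned to -0.12, *Cox5a* to -0.39, *Cox6b1* to -0.12, *Ndufa4* to -0.47 and *Cox6c* to -0.32. *Cox8b* was at 291 CPM (279 to 303) and 187 CPM (178 to 197), -0.63 (-0.73 to -0.54), and *Cox7a1* at 59.3 and 42.6 CPM, -0.48 (-0.68 to -0.27). *Cox7a2* was at -0.28 (-0.42 to -0.15) and *Cox7b* at -0.14 (-0.22 to -0.05). *Cox6b2*, a testis form, was at 11.3 and 6.07 CPM, -0.89 (-1.43 to -0.37), from 85 and 50 UMIs. Beside the members, *Cox4i1* was at 575.5 and 502 CPM, -0.20 (-0.26 to -0.13), and *Ucp1* at 152 and 261 CPM, 0.78 (0.68 to 0.89). *Ucp1* was at -0.83 in endothelial-like, -0.73 in fibroblast-like and -0.53 in pericyte-like nuclei and -2.13 in the unnamed cluster. Its intervals spanned 0 in macrophage-like and T cell-like nuclei. Per the study's methods iCre sits within *Ucp1*, ahead of the untranslated end of the transcript. Its part in the *Ucp1* counts was not tested.

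In complex V, 13 of 17 genes had intervals below 0, against 24.6% of all genes tested, and 3 had intervals above 0, against 31.4%. All 5 subunits of the catalytic F1 head, grouped after their values were seen, were lower, among them the beta subunit *Atp5b* at 474 and 405 CPM, -0.23 (-0.30 to -0.16), the alpha subunit *Atp5a1* at 452 and 334 CPM, -0.44 (-0.51 to -0.36), and the delta subunit *Atp5d* at 283 and 189 CPM, -0.58 (-0.68 to -0.49). The proton-carrying c-ring is coded by 3 genes for 1 mature protein. *Atp5g3* was at 268 and 170 CPM, -0.66 (-0.76 to -0.56), while *Atp5g2* was at 59.3 and 77.3 CPM, 0.38 (0.21 to 0.56). *Atp5g1* had only 10 and 28 UMIs, and such near-identical genes and their pseudogene copies can split or lose reads in counting, so its level is uncertain.

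**Figure D2:**
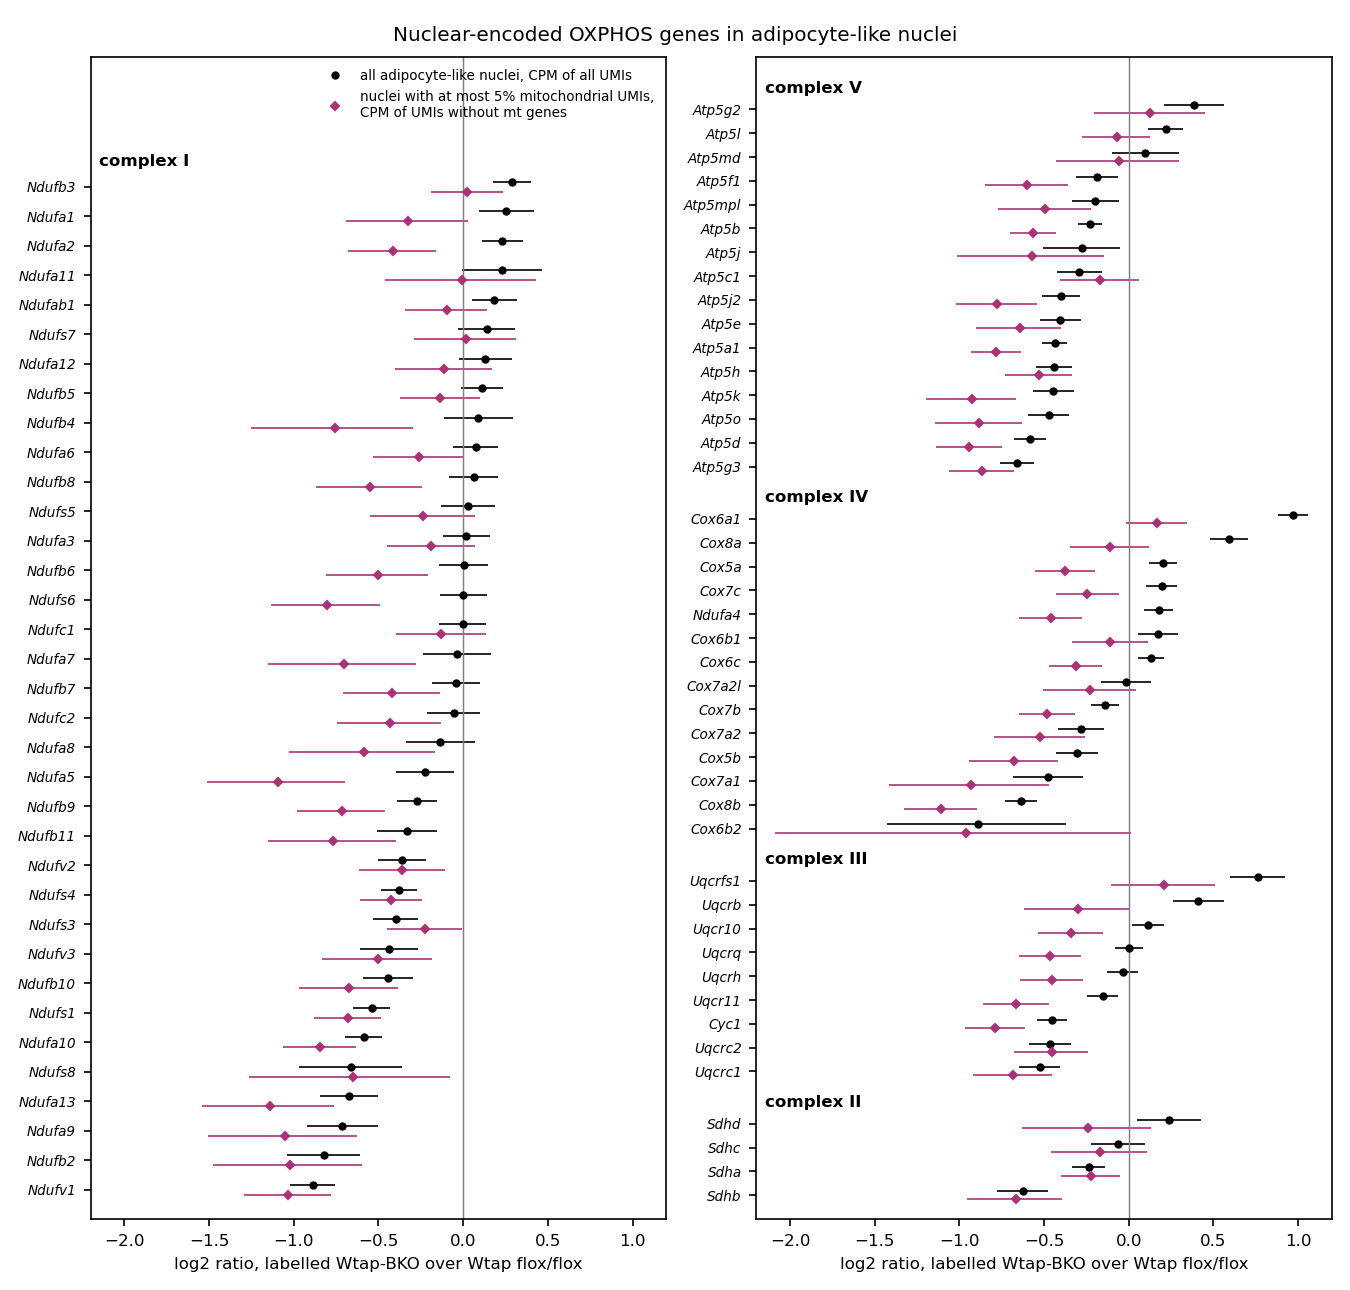
Log2 ratio of the BKO-labelled library over Wtap flox/flox for 78 of the 79 nuclear-encoded members with at least 100 UMIs in adipocyte-like nuclei, by complex; circles are all nuclei (CPM over all UMIs), diamonds nuclei with at most 5% mitochondrial UMIs (CPM over the UMIs of all but the mitochondrial genes), bars are exact 95% intervals (counting error only). Ndufv1 is low in both (-0.89 and -1.03), while Cox8a moves from 0.59 to -0.11.

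The level of the nuclear-encoded members varied with the mitochondrial share of the single nucleus. This was examined after the data were seen, in bins of mitochondrial share and over the UMIs of all other genes, so that the mitochondrial UMIs could not lower the nuclear-encoded CPM. In adipocyte-like nuclei of the flox/flox library the summed level was 7851 CPM (7304 to 8428) at 0 to 1% mitochondrial UMIs, 9411 at 1 to 2%, 11824 at 2 to 5%, 15252 at 5 to 10%, 21514 at 10 to 25% and 33665 CPM (32405 to 34961) above 25%. In the BKO-labelled library it was 6778 CPM (6388 to 7186) at 1 to 2%, 7978 at 2 to 5%, 10369 at 5 to 10%, 14964 at 10 to 25% and 23065 CPM (22599 to 23537) above 25%. In both libraries each bin was above the one before it, with intervals that did not overlap.

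Ribosomal protein genes, a set of cytoplasmic mRNAs outside OXPHOS, moved with the same axis, from 3977 to 19309 CPM in the flox/flox library and from 5090 to 14161 CPM in the BKO-labelled library. Adipocyte markers did not, at 16164 to 17328 CPM and 20839 to 21563 CPM. TCA cycle enzymes went from 4706 to 6190 CPM and from 2908 to 5072 CPM. The median nucleus held 919.5 to 1641 UMIs in the *Wtap* flox/flox bins and 1402 to 1990 UMIs in the others. Whether mRNA from the cytoplasm that stayed with the nuclei has a part in these levels was not tested.

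Set against nuclei of the same mitochondrial share, the nuclear-encoded members were lower in the BKO-labelled library in each of the 5 bins that both libraries filled. The bins are set by the mitochondrially encoded members, whose level was itself higher in the BKO-labelled library. Matching on it can by itself lower the nuclear-encoded ratio, since both levels went up together within each library. The values within bins therefore describe nuclei of like mitochondrial share, and no lower level in the whole lineage can be read from them. The log2 ratio was -0.47 (-0.56 to -0.39) at 1 to 2%, -0.57 (-0.60 to -0.54) at 2 to 5%, -0.56 (-0.59 to -0.53) at 5 to 10%, -0.52 (-0.56 to -0.49) at 10 to 25% and -0.55 (-0.61 to -0.48) above 25%. These values differ from the -0.02 (-0.03 to -0.01) over all adipocyte-like nuclei on the same scale. The nuclei of the BKO-labelled library lay at a higher mitochondrial share, with a median of 9.68% against 2.94%, where the members stand higher in both libraries. Within bins complex II was at -0.77 to -0.07, with an interval of -0.44 to 0.29 at 1 to 2%, complex V at -0.71 to -0.55, complex I at -0.57 to -0.53, complex III at -0.61 to -0.48 and complex IV at -0.50 to -0.24. Ribosomal protein genes were at -0.45 to 0.02 in these bins, and TCA cycle enzymes at -0.81 to -0.29.

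**Figure D3:**
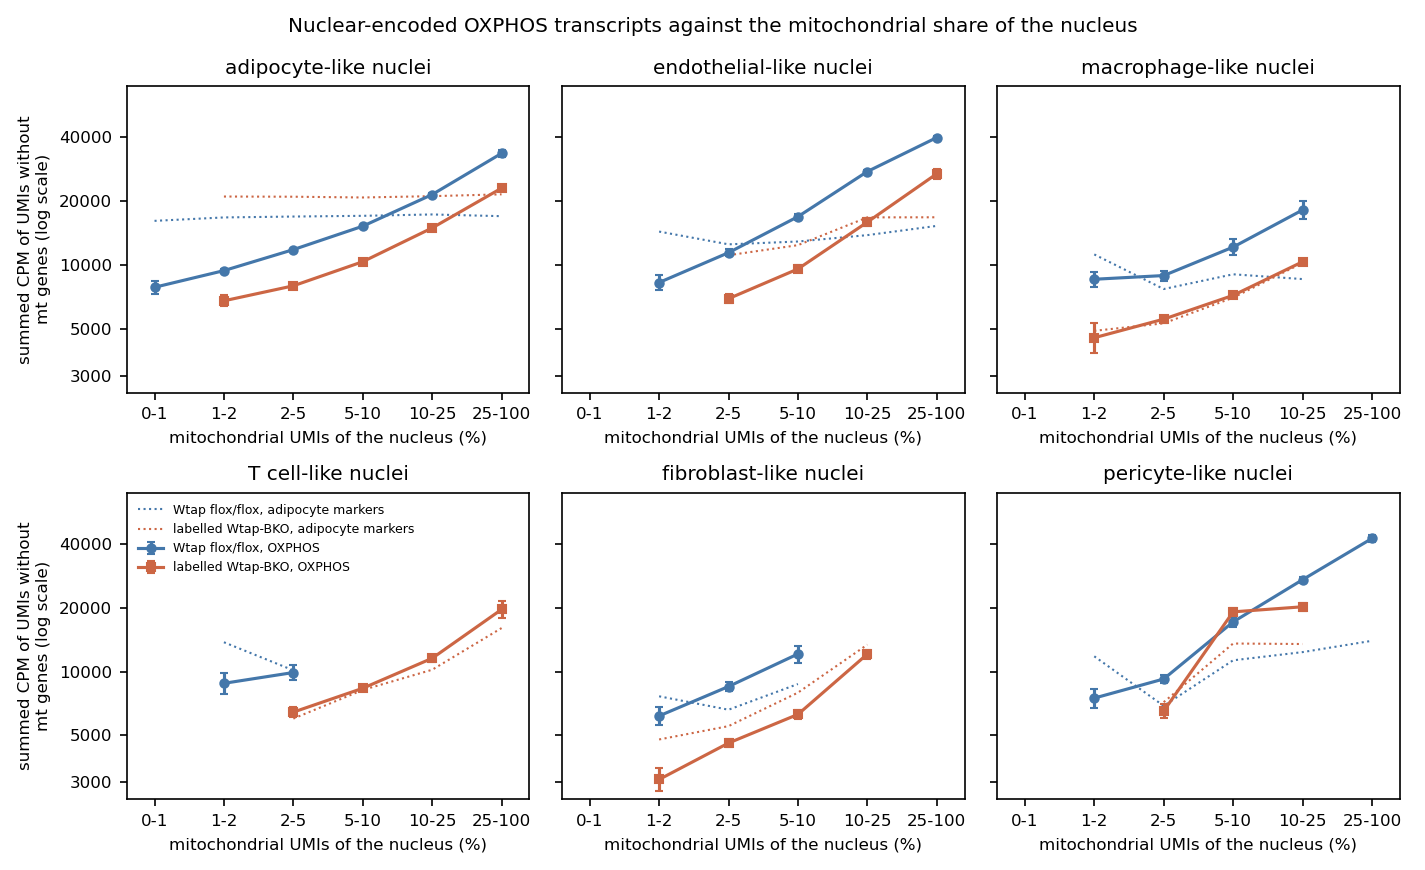
Summed CPM of the 84 nuclear-encoded members (solid lines) and of 12 adipocyte markers (dotted lines) over the UMIs of all genes but the mitochondrial ones, on a log scale, against the mitochondrial percentage of the nucleus in 6 bins, by lineage; circles are Wtap flox/flox, squares the BKO-labelled library, bars are exact 95% Poisson intervals, and bins under 20 nuclei are left out. OXPHOS is higher in each later bin in adipocyte-like nuclei of both libraries (7851 to 33665 CPM and 6778 to 23065 CPM) while the adipocyte markers stay near level.

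Counted by member, 31 of 78 were at least 1.5-fold lower at 1 to 2%, against 21.7% of all genes tested there. The counts in the next bins were 37 of 79 against 10.7%, 32 of 79 against 9.22%, 32 of 79 against 9.34%, and 41 of 77 against 14.3% above 25%. At least 1.5-fold higher were 0 members in the first 4 of these bins, against 25.1%, 24.9%, 27.5% and 31.5% of all genes, and 1 above 25%, against 34.1%.

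The lower level within bins was spread over most members. Of 77 nuclear-encoded members with at least 20 UMIs in every bin, 56 were lower in all 5 bins, or 72.7%, a pattern that 14.8% of the 4452 genes measured there showed. By complex these were 24 of 35 in complex I, 3 of 4 in complex II, 6 of 9 in complex III, 9 of 13 in complex IV and 14 of 16 in complex V. *Ndufv1* ranged from -1.10 to -0.87 over the bins, *Ndufa13* from -1.79 to -0.80, *Cox8b* from -1.44 to -0.88 and *Atp5d* from -1.07 to -0.47. *Cox8a*, higher over all nuclei, was at -0.22 to -0.03. *Cox6a1* was the 1 member that was higher in all 5 bins, at 0.01 to 0.53, against 28.0% of all genes. Among ribosomal protein genes 23 of 76 were lower in all 5 bins, among TCA cycle enzymes 10 of 14, and among assembly factors 3 of 15.

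In adipocyte-like nuclei with at most 5% mitochondrial UMIs, 5184 and 1057 nuclei were left, and on the same scale 31 of the 79 members that passed the minimum on counts were at least 1.5-fold lower, against 10.6% of all genes tested. None was at least 1.5-fold higher, against 26.0%. The median was -0.48 against 0.13 over all genes. *Ndufa13* was at -1.14 (-1.54 to -0.76), *Cox8b* at -1.11 (-1.33 to -0.90), *Ndufa9* at -1.05 (-1.51 to -0.62), *Ndufv1* at -1.03 (-1.30 to -0.78) and *Cox7a1* at -0.93 (-1.42 to -0.47). Behind *Cox8b* were 1438 UMIs in the flox/flox library and 206 in the other.

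Members differed in how far their level went up with the mitochondrial share, and they did so alike in both libraries. From 2 to 5% to 10 to 25% mitochondrial UMIs, 61 of 79 members were at least 1.5-fold higher in the flox/flox library, against 11.4% of all genes, and 62 of 79 in the BKO-labelled library, against 10.2%. None was at least 1.5-fold lower in either, against 16.4% and 7.81%. The median log2 ratios were 0.90 and 0.88, against -0.14 and -0.05 over all genes. Across the 79 members the ratios of the libraries had a Spearman correlation of 0.73, as a description over genes that share nuclei and depth.

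The group medians were lowest for the core subunits of complex I and for complex II. The median was 0.33 and 0.42 for the 7 core subunits of complex I, against 0.996 and 0.903 for the 29 accessory ones, in the flox/flox library and the other. Complex II had medians of 0.49 and 0.40, with *Sdhd* above the median of all members at 1.06 and 1.09, and complex IV the highest in the flox/flox library, 1.15 there and 1.08 in the other. *Ndufs4* was at 223 and 225 CPM in the lower and upper bin of the flox/flox library, a log2 ratio of 0.01 (-0.30 to 0.31), and at 167 and 198 CPM in the other, 0.24 (0.03 to 0.46). *Ndufs1* was at -0.40 (-0.74 to -0.07) and 0.28 (0.05 to 0.51), a direction that differed between libraries. *Cox8a* was at 130 and 337 CPM, 1.38 (1.11 to 1.64), and at 112 and 316 CPM, 1.502 (1.27 to 1.74). *Cox6a1* was at 1.24 (1.01 to 1.46) and 1.62 (1.45 to 1.80).

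The span of the gene moved with this ratio. Members that span at least 20000 bases, 10 in all, had median ratios of 0.48 and 0.30, and the 69 shorter ones 0.97 and 0.93. The Spearman correlation of this ratio and the span was -0.44 and -0.43 over the 79 members. *Ndufs4* is the longest of them, at 100300 bases (chromosome 13, 114287795-114388094), while *Cox8a* spans 2459 bases (chromosome 19, 7215158-7217616). Nuclear RNA of long genes holds more intron, and whether intron reads were counted is not given in the sources used here. Their part in the ratios was not tested.

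**Figure D4:**
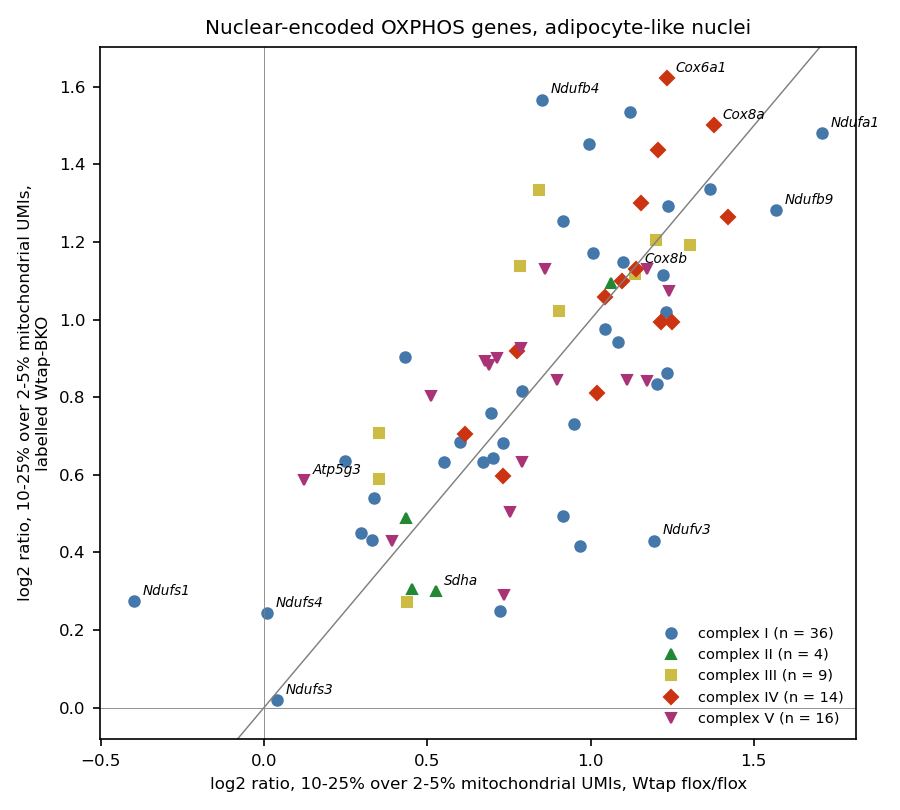
For each of 79 nuclear-encoded members in adipocyte-like nuclei, the log2 ratio of nuclei with 10 to 25% over nuclei with 2 to 5% mitochondrial UMIs, in the flox/flox library (x axis) and the BKO-labelled library (y axis); each point is 1 gene, shape and colour give the complex, and the diagonal marks equal ratios. Most genes lie above 0 on both axes, and Ndufs4 lies near 0 on the x axis (0.01).

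Endothelial-like and pericyte-like nuclei stood above adipocyte-like nuclei in the flox/flox library, and pericyte-like nuclei in the other. In the flox/flox library the summed nuclear-encoded level was 19111 CPM in endothelial-like, 16076 in pericyte-like, 11902 in adipocyte-like, 10735 in T cell-like, 10084 in macrophage-like and 9313 CPM in fibroblast-like nuclei. In the BKO-labelled library the order was pericyte-like at 13610 CPM, adipocyte-like at 10858, endothelial-like at 10005, T cell-like at 8317, macrophage-like at 6995 and fibroblast-like at 5663 CPM. The intervals of neighbours in both orders did not overlap, except T cell-like (10194 to 11297) and macrophage-like nuclei (9743 to 10434) of the flox/flox library. The lineages with the highest levels there also had the highest mitochondrial share of UMIs, 15.9% in endothelial-like and 12% in pericyte-like nuclei, against 4.52% in adipocyte-like nuclei. The unnamed cluster, at a median of 29.9% and 35.1% mitochondrial UMIs a nucleus, had the highest level of all, 31454 and 27661 CPM.

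Over all non-adipocyte lineages together, adipocyte-like nuclei were lower in the flox/flox library, at a log2 ratio of -0.41 (-0.43 to -0.40), and higher in the other, at 0.44 (0.43 to 0.46). Of the 81 members measured in the flox/flox library, 1 was at least 1.5-fold higher in adipocyte-like nuclei, against 23.3% of all genes, and 27 at least 1.5-fold lower, against 25.9%. In the other library 13 of 80 were higher, against 19.6%, and 1 lower, against 36.8%. With nuclei of at most 5% mitochondrial UMIs both were higher in adipocyte-like nuclei, at 0.26 (0.23 to 0.29) and 0.53 (0.49 to 0.56). Fibroblast-like nuclei then stood farthest below, with adipocyte-like nuclei higher by 0.49 (0.43 to 0.56) and 0.87 (0.81 to 0.93), and endothelial-like nuclei nearest, by 0.04 (-0.003 to 0.09) and 0.22 (0.15 to 0.30). TCA cycle enzymes were higher in adipocyte-like nuclei in both libraries without that filter, at 0.60 (0.57 to 0.63) and 1.01 (0.97 to 1.04). The 12 adipocyte markers stood at 62.1% and 43.0% of their adipocyte-like level in non-adipocyte nuclei, and at 43.7% to 71.0% and 36.2% to 63.5% in the single lineages. RNA of adipocytes in the droplets of other lineages and expression in those lineages cannot be told apart here, and this holds for each non-adipocyte value below.

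In the other lineages the nuclear-encoded level was lower in the BKO-labelled library, each with an interval below 0. The log2 ratio was -0.93 (-0.97 to -0.90) in endothelial-like, -0.72 (-0.78 to -0.65) in fibroblast-like, -0.53 (-0.58 to -0.47) in macrophage-like, -0.37 (-0.45 to -0.29) in T cell-like and -0.24 (-0.29 to -0.19) in pericyte-like nuclei. The mitochondrially encoded ratio differed in sign between lineages. It was 1.04 (1.004 to 1.08) in T cell-like, 0.66 (0.63 to 0.68) in macrophage-like and 0.27 (0.24 to 0.29) in fibroblast-like nuclei, near 0 at -0.033 (-0.050 to -0.017) in pericyte-like, and -0.61 (-0.63 to -0.60) in endothelial-like nuclei. The endothelial-like sign came from the larger of 2 clusters, examined after the data were seen. In that cluster, of 842 and 687 nuclei, the mitochondrially encoded ratio was -0.91 (-0.92 to -0.89), and in the smaller one, of 277 and 89 nuclei, it was 0.094 (0.073 to 0.12). The nuclear-encoded ratio was below 0 in both, at -1.15 (-1.19 to -1.11) and -0.42 (-0.49 to -0.35).

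Endothelial-like nuclei were lowest over the members, with 61 of 78 at least 1.5-fold lower against 7.55% of all genes tested. The count was 48 of 78 in fibroblast-like nuclei against 14.0%, 34 of 79 in macrophage-like nuclei against 16.8%, 24 of 78 in T cell-like nuclei against 19.2% and 17 of 79 in pericyte-like nuclei against 10.9%. At least 1.5-fold higher were 0, 0, 2, 8 and 4 members in the same order, against 33.8%, 23.2%, 25.2%, 29.9% and 23.4% of all genes. In the unnamed cluster 16 of 78 were lower, against 10.9%, and 1 higher, against 29.4%. Of 78 members measured in 6 lineages, 36 were lower in all 6, against 8.80% of the 6185 genes measured in them, and 0 were higher in all 6, against 14.7%. Among them were 15 of 36 genes of complex I, 3 of 4 of complex II, 4 of 9 of complex III, 4 of 13 of complex IV and 10 of 16 of complex V. The lineages share a library each, so they are not replicates of the genotype.

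At a matched mitochondrial share the non-adipocyte lineages were lower in 14 of 15 lineage and bin pairs, at -0.996 to -0.42 in those 14. The exception was pericyte-like nuclei at 5 to 10%, with 17147 and 19127 CPM from 91 and 85 nuclei, a log2 ratio of 0.16 (0.06 to 0.25). Its neighbour bins were at -0.50 (-0.63 to -0.37) and -0.42 (-0.51 to -0.34). The unnamed cluster was nearest to 0, at -0.11 to -0.03 in 3 bins.

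*Cox8b* and *Cox8a* (chromosome 7, 140898942-140900446, and chromosome 19) code for exchangeable forms of 1 subunit, so their shares do not depend on the total. In adipocyte-like nuclei *Cox8b* took 67.4% (65.8 to 69.1) of 3253 UMIs of both in the flox/flox library and 47.0% (45.3 to 48.7) of 3286 in the BKO-labelled library. In the other lineages of the flox/flox library it took 63.9% (61.0 to 66.6) in endothelial-like, 69.8% (61.1 to 77.5) in macrophage-like, 63.8% (48.5 to 77.3) in T cell-like, 66.7% (57.8 to 74.7) in fibroblast-like and 63.6% (58.7 to 68.3) in pericyte-like nuclei. In the BKO-labelled library it took 44.3% (38.9 to 49.9), 38.6% (34.1 to 43.3), 40.0% (33.8 to 46.4), 43.4% (36.1 to 50.9) and 37.8% (30.8 to 45.1) in the same order. The shares thus differed between the libraries in each of the 6 lineages, with intervals that overlapped in none. Among the lineages of 1 library they ranged from 63.6% to 69.8% and from 37.8% to 47.0%. The level of *Cox8b* was lower in all 6 lineages, from -0.63 in adipocyte-like to -1.81 (-2.27 to -1.35) in fibroblast-like nuclei.

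The shares of the c-ring genes differed between the libraries in adipocyte-like nuclei. *Atp5g3* took 81.5% (80.0 to 83.1) of the *Atp5g1* to *Atp5g3* UMIs in adipocyte-like nuclei of the flox/flox library and 67.7% (65.7 to 69.8) in the other. In endothelial-like nuclei it took 69.0% (64.3 to 73.3) and 59.6% (51.8 to 67.2), in macrophage-like nuclei 72.2% and 60.7%, in T cell-like nuclei 63.4% and 62.6%, in fibroblast-like nuclei 71.0% and 61.8%, and in pericyte-like nuclei 65.7% and 47.8%, and the intervals of the libraries overlap in each of these 5 lineages. *Cox7a1* took 31.9% (29.5 to 34.4) and 29.0% (26.5 to 31.7) of the *Cox7a1* and *Cox7a2* UMIs in adipocyte-like nuclei, a pair of intervals that overlap. *Cox6b2* took 7.23% (5.82 to 8.87) and 3.59% (2.68 to 4.71) of *Cox6b1* and *Cox6b2*. *Cox6a2*, the form of striated muscle, had 2 and 5 UMIs there, and 7 skeletal muscle markers summed to 4.24 and 11.0 CPM.

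*Cox4i2* and *Ndufa4l2* took a higher share of their families in pericyte-like than in adipocyte-like nuclei of both libraries. *Cox4i2*, an oxygen-responsive form of the subunit, took 2.98% (1.77 to 4.66) and 6.49% (3.83 to 10.2) of the *Cox4i1* and *Cox4i2* UMIs in pericyte-like nuclei, from 18 and 17 UMIs, against 0.14% (0.05 to 0.30) and 0.14% (0.05 to 0.31) in adipocyte-like nuclei. *Ndufa4l2*, a hypoxia-induced relative of *Ndufa4*, took 4.43% (2.31 to 7.61) and 6.51% (3.29 to 11.3) of the *Ndufa4* and *Ndufa4l2* UMIs in pericyte-like nuclei, from 12 and 11 UMIs, against 0.35% (0.14 to 0.73) and 0.04% (0.00 to 0.23) in adipocyte-like nuclei. Within pericyte-like nuclei the intervals of the libraries overlap for both.

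**Figure D5:**
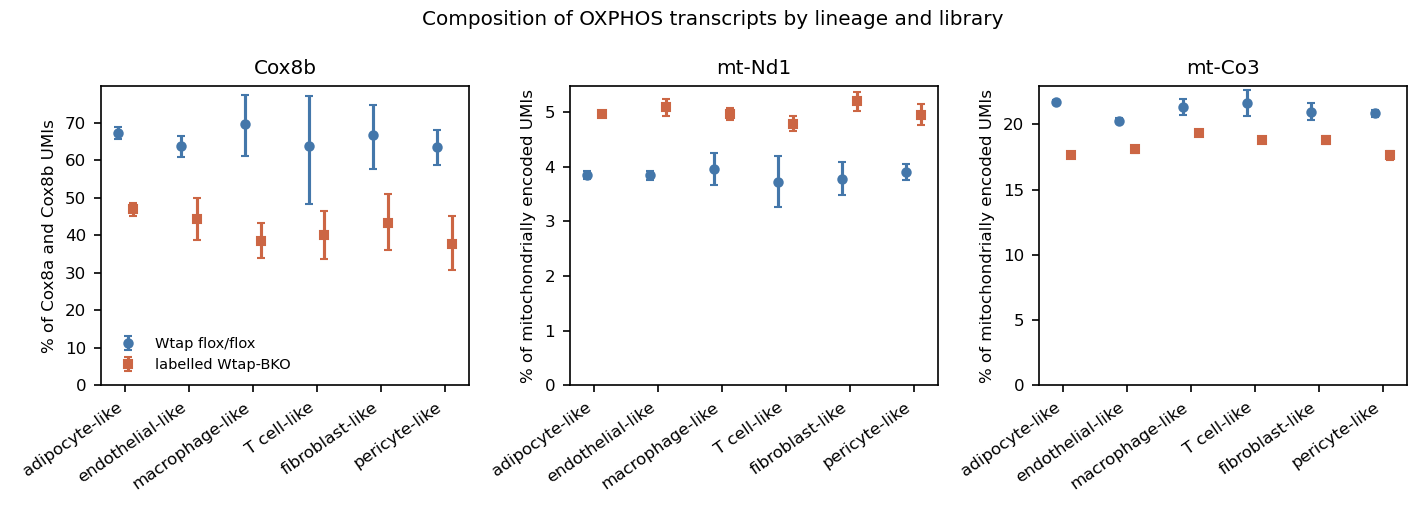
Share of Cox8b in the UMIs of Cox8a and Cox8b (left), and shares of mt-Nd1 (middle) and mt-Co3 (right) in the UMIs of the 13 mitochondrially encoded genes, in percent from 0, by lineage; circles are Wtap flox/flox, squares the BKO-labelled library, bars are exact 95% binomial intervals (counting error only). In each lineage the libraries lie apart, as for Cox8b in adipocyte-like nuclei (67.4% and 47.0%).

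The make-up of the mitochondrial transcripts also differed by library. For 6 of the 13 genes the ranges over the lineages did not overlap between the libraries. Over the 6 lineages *mt-Nd1* took 3.71% to 3.96% of the mitochondrial UMIs of the flox/flox library and 4.79% to 5.19% of those of the BKO-labelled library. *mt-Co3* took 20.3% to 21.7% and 17.6% to 19.4%. *mt-Cytb* at 5.92% to 6.37% and 5.26% to 5.71%, and *mt-Nd5* at 1.32% to 1.69% and 1.07% to 1.22%, were likewise lower in the BKO-labelled library in ranges that did not overlap. *mt-Co1*, the most abundant, overlapped at 25.7% to 28.2% and 27.1% to 29.5%. Lineages with a higher and a lower mitochondrial level in the BKO-labelled library showed the same shift, since *mt-Nd1* exceeded *mt-Co3* in log2 ratio in T cell-like nuclei (1.41 and 0.84) as in endothelial-like nuclei (-0.21 and -0.78).

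The 4 adipocyte-like clusters gave nuclear-encoded ratios below 0 for the sum over all complexes, but not for each complex. The 2 large clusters were at -0.022 (-0.040 to -0.003) and -0.12 (-0.14 to -0.10), the cluster led by *Slc7a10* and *Cyp2e1* at -0.26 (-0.34 to -0.18), and the cluster led by interferon-response genes at -0.29 (-0.35 to -0.22). The mitochondrially encoded ratio was 1.60, 1.17, 1.19 and 1.56 in the same order. Complex V was lower in each, at -0.23 (-0.27 to -0.19), -0.30 (-0.34 to -0.25), -0.33 (-0.48 to -0.18) and -0.53 (-0.67 to -0.40). Complex IV was at 0.25 (0.22 to 0.29), 0.084 (0.038 to 0.13), -0.059 (-0.22 to 0.11) and 0.11 (-0.038 to 0.25), and complex III at 0.029 (-0.017 to 0.075), -0.081, -0.26 and -0.25.

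Genes that build or accompany the complexes were also counted in adipocyte-like nuclei. Of all genes tested there, 12.4% were at least 1.5-fold lower and 25% at least 1.5-fold higher, with a median of 0.07. Of 43 assembly factors, 3 were at least 1.5-fold lower and 6 at least 1.5-fold higher, with a median of -0.04. Of 14 TCA cycle enzymes, 5 were at least 1.5-fold lower and none higher, with a median of -0.47. Of 81 ribosomal protein genes that passed the minimum on counts, 6 were at least 1.5-fold higher and none lower, with a median of 0.21. *Cycs*, the cytochrome that links complexes III and IV, was at 57.3 and 66.3 CPM, 0.21 (0.03 to 0.40).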

How the data were processed

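The deposited values were raw UMI counts per gene and nucleus, made by the authors from 10x 3' libraries. Per the labels' processing notes, Cell Ranger 5.0.0 and the build mm10 were used, and per the study's methods nuclei under 500 UMIs had been removed. Gene spans came from the RefSeq table of GRCm38.p6. No sequence is shown. Nuclei were integrated by canonical correlation analysis and clustered in Seurat 5.3.0 (R 4.3.3) on 2000 variable features, 20 principal components and a resolution of 0.5, after OXPHOS genes were removed. Clusters were named from markers, but a cluster with at least 2 mitochondrial genes among its 10 leading genes was not named adipocyte-like. Scrublet in scanpy 1.11.5 called 3 and 0 doublets, and the called nuclei were kept. UMIs were summed by library and lineage, and CPM, shares and log2 ratios were given exact Poisson, Clopper-Pearson and conditional 95% intervals. A library at 0 UMIs was set to 3. Genes needed 20 UMIs in both libraries together. The steps were tested on simulated counts. Members, lists and alternatives were chosen with earlier results of these data known. The named genes were the mitochondrial genes, isoform families, the 3 members of each complex with the most UMIs, and the 5 highest and 5 lowest ratios among members with 100 UMIs, with *Cox4i1*, *Cox4i2*, *Cycs* and *Ucp1* beside them. The values of 1 member are not reported here; it stays in the sums and counts.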

Additional observations from a re-analysis of the deposited data

Results flagged for a closer look

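Some ratios had a sign in another lineage opposite to that in adipocyte-like nuclei, both with intervals off 0. They are given here for the sums and for single nuclear-encoded members. The difference itself was not tested, since each genotype had 1 library. The mitochondrially encoded sum, at 1.38 in adipocyte-like nuclei, was at -0.61 in endothelial-like and -0.033 in pericyte-like nuclei. The endothelial-like sign held in 1 of 2 clusters, at -0.91, while the other was at 0.094. The nuclear-encoded sum of complex IV, at 0.11 in adipocyte-like nuclei, was at -0.84 in endothelial-like, -0.37 in macrophage-like, -0.64 in fibroblast-like and -0.16 in pericyte-like nuclei.

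Of the 80 nuclear-encoded members measured in adipocyte-like nuclei, 16 showed the same in at least 1 lineage. They were 3 of complex I, 1 of complex II, 3 of complex III, 7 of complex IV and 2 of complex V, and 9 of them are genes named by rule. The same count over all genes is not given here, so the 16 do not set the members apart from other genes. In endothelial-like nuclei *Cox6a1* was at -0.43, *Cox6b1* at -0.60, *Cox8a* at -0.42, *Ndufa4* at -1.03, *Sdhd* at -0.59, *Cox6c* at -0.96, *Cox5a* at -0.64, *Uqcrb* at -0.44 and *Uqcrfs1* at -0.41. In macrophage-like nuclei *Ndufa4* was at -0.40, *Cox6c* at -0.68 and *Cox5a* at -0.41. In fibroblast-like nuclei *Ndufa4* was at -0.65, *Cox6c* at -0.78 and *Cox5a* at -0.83, and in pericyte-like nuclei *Cox6c* was at -0.33. The other 7, named after their values were seen, included *Ndufa1*, at 0.25 in adipocyte-like nuclei, -1.32 in endothelial-like and -1.31 in fibroblast-like nuclei. *Ndufab1* was at 0.18, and at -0.37 in endothelial-like and -0.97 in macrophage-like nuclei. *Uqcr10* was at 0.11, and at -0.74, -0.67 and -0.87 in endothelial-like, macrophage-like and fibroblast-like nuclei. In endothelial-like nuclei *Ndufa2* was at -0.87 against 0.23, *Cox7c* at -0.58 against 0.19 and *Atp5l* at -0.41 against 0.22. *Atp5c1* alone was lower in adipocyte-like nuclei, at -0.29, and higher elsewhere, at 0.69 (0.20 to 1.19) in pericyte-like nuclei. The mitochondrial share, which is the mitochondrially encoded sum in percent, went from 4.52% to 11.7% of UMIs in adipocyte-like, from 15.9% to 10.4% in endothelial-like, from 5.31% to 8.37% in macrophage-like, from 4.84% to 9.96% in T cell-like, from 5.01% to 6.04% in fibroblast-like and from 12% to 11.8% in pericyte-like nuclei. It was thus higher in adipocyte-like, macrophage-like, T cell-like and fibroblast-like nuclei, and lower in endothelial-like and pericyte-like nuclei. The nuclear-encoded sum over all complexes was lower in each of these lineages, whichever way the share went. The part of the share in the signs was not tested. In adipocyte-like nuclei with at most 5% mitochondrial UMIs the nuclear-encoded ratio of complex IV was -0.40.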

How the results depend on the processing

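No paired analysis was possible because each genotype had 1 library. Named members and complexes gave 510 values under the alternatives, of which 334 moved by less than the counting interval, 159 moved further and 17 changed sign from a ratio whose interval was off 0. Of the others, 5 lay on the other side of 0, all of *Uqcrq* and *Sdhc*, whose intervals spanned 0. With nuclei of over 5% mitochondrial UMIs removed, the nuclear-encoded ratio in adipocyte-like nuclei went from -0.13 to -0.50, its median over members from -0.15 to -0.49, the count of members at least 1.5-fold lower from 10 to 31 and of those higher from 4 to 0, and the mitochondrially encoded ratio, which this filter limits directly, from 1.38 to 0.38. The adipocyte-like over non-adipocyte ratio of the flox/flox library turned from -0.41 to 0.26, that of the BKO-labelled library went from 0.44 to 0.53, and the *Cox8b* share in the latter from 47.0% to 51.4%. Ratios that turned were those of *Cox6b1* (-0.12), *Cox8a* (-0.12), *Ndufa4* (-0.47), *Sdhd* (-0.25), *Cox6c* (-0.32), *Cox5a* (-0.39), *Uqcrb* (-0.31) and the complex IV sum (-0.40), and *Uqcrq* went from 0.00 to -0.48. With mitochondrial UMIs also left out of the denominator, an alternative chosen after seeing the data, as were the bins of mitochondrial share, these were -0.11, -0.11, -0.46, -0.24, -0.31, -0.37, -0.30 and -0.39. The sums were then -0.49 and 0.40, the median -0.48, the counts 31 and 0, the contrasts between lineages 0.26 and 0.53, and the share 51.4%.

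Other alternatives are given in the order nuclear-encoded ratio, mitochondrially encoded ratio, and adipocyte-like over non-adipocyte ratio in the flox/flox and the BKO-labelled library. Without mitochondrial UMIs in the denominator these were -0.019, 1.49, -0.53 and 0.49, with 4 members at least 1.5-fold lower and the complex III sum turned to 0.013. Without Gm42418 they were -0.15, 1.36, -0.49 and 0.42, by median-of-ratios scaling -0.20, 1.31, -0.49 and 0.65, and at a clustering resolution of 1.0 they were -0.12, 1.56, -0.52 and 0.26. At a minimum of 1000 UMIs a nucleus the first was -0.087, the third -0.59, and 6 members were lower. With 8 principal components the last 3 were 1.40, -0.44 and 0.40. As a mean over nuclei the lineage contrasts were -0.21 and 0.52, and without the nuclei of highest doublet score -0.48 and 0.54. The causes were not tested. Precision is limited by 1 library a genotype and by the 115 T cell-like nuclei of the flox/flox library.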
